A study of Mus musculus with 16 samples.

Results

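Peptide hormone genes of the pancreatic islet were examined in mice carrying a conditional deletion of Insm1 directed to adult beta cells. The genes considered were Ins1, Ins2, Iapp, Gcg, Sst, Ppy, Pyy, Npy, Ghrl and Cck, taken by name from the annotation of the array. Of these 10 genes, 9 were named by at least 1 probe set, giving 12 probe sets of the 45037 tested, and 9 of the 18193 genes measured. No probe set of the annotation named Ins1, alone or with another gene, so Ins1 was not analysed here.

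The study asked how islet transcripts change when beta cells lose Insm1, a DNA-binding regulator found in endocrine cells, and its title names Neurod1 and Foxa2 as partners of Insm1. Insm1 mutant mice (RIPcreER; Insm1flox/lacZ, n = 8) were compared with control mice (RIPcreER; Insm1flox/+, n = 8), with 1 Affymetrix array per islet preparation. Both groups carried RIPcreER, a tamoxifen-activated recombinase under the rat insulin promoter, which acts mainly in beta cells. Both received tamoxifen as a 25 mg dose released over 21 days, starting when the mice were 4 to 5 weeks old, and islets were taken from them at 8 to 12 weeks. The design text calls the controls litter-matched. The strain background of all animals was mixed, from CBA/J, C57BL/6 and 129/ola. Controls also carried 1 floxed allele, so that their beta cells could be left with the wild-type allele alone, and the lacZ allele of the mutants was present in all their cells. The arrays measured whole islets, so beta cells and the other endocrine cells contributed to every value.

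Each islet cell type is known for a hormone. Beta cells make insulin and islet amyloid polypeptide, alpha cells glucagon, delta cells somatostatin, PP cells pancreatic polypeptide, and the rare epsilon cells ghrelin. Pancreatic polypeptide, peptide YY and neuropeptide Y belong to a single family. Hormones are made as longer precursors, which convertases cut in the secretory granule, and transcription factors such as Pdx1 and Neurod1 act on their genes.

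Ghrl, the ghrelin gene, was the only hormone gene that rose in mutant islets past the test. Its signal was 1.94-fold higher in the mutants (95% interval 1.37 to 2.77, n = 8 per group). Of the control signals 7 of 8 lay below the lowest array median, and no detection calls were given to set them apart from background. Pyy and Ppy were higher by 0.33 and 0.21 on the log2 scale, and passed when same-numbered arrays were treated as pairs, but not with genotype as the only term. Signals of Gcg, Sst, Npy, Cck, Ins2 and Iapp did not pass the test in either fit. Ins2, Gcg, Ppy and 3 of the 4 Iapp probe sets lay near the highest value of the data, a signal of Ins2 itself. A change could be hidden there, while 1 Iapp probe set lay clear of it.

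To show the genes that these results turn on, the 250 bases before the annotated start are printed for Ghrl, Ppy and Pyy. They are from RefSeq on GRCm38.p6, 5′ to 3′ on the gene's strand. The table held 9 of the 10 genes and no entry for Ins2. It held 4 starts for Ghrl and 2 for Pyy, of which the most upstream was taken. Ghrl lies on the minus strand at chr6:113719912-113720161, Ppy on the minus strand at chr11:102101320-102101569, and Pyy on the minus strand at chr11:102107833-102108082. Ppy and Pyy are neighbours, with 0 other annotated genes between them. Capitals mark the letters CANNTG, the E-box core that factors such as Neurod1 bind, and TATAA on either strand.
Ghrl: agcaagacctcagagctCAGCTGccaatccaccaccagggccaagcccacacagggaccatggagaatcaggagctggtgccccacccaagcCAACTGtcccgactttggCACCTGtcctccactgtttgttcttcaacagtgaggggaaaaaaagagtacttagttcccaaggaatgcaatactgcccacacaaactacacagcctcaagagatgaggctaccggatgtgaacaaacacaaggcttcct
Ppy: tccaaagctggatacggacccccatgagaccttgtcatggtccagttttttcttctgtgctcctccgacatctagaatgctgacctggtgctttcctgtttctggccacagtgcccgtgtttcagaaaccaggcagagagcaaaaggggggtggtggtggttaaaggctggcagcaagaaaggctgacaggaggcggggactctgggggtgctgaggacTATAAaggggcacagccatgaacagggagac
Pyy: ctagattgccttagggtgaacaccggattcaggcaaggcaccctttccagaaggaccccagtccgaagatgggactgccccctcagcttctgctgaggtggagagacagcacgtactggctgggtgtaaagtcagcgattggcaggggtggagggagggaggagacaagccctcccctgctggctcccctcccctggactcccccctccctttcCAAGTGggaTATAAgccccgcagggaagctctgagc
The Ghrl window held 3 matches to CANNTG, the Pyy window 1 and the Ppy window 0, while TATAA was matched once in each of the windows of Ppy and Pyy and not in that of Ghrl. Of 32817 annotated windows of the same length, 66.2% held CANNTG and 22.8% held TATAA, each searched on both strands with overlaps allowed. The letters TGTTTAC, a form of the forkhead site that Foxa2 binds, were in none of the printed windows and in 3.16% of all. Other forms of that site were not searched. A match is a description of the letters, not evidence of binding.

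Values are the authors' deposited log2 signals, and differences are mutant minus control. They were tested with limma over all 45037 probe sets, with Benjamini-Hochberg adjustment over all of them, and a probe set was called at an adjusted p under 0.05. Of all probe sets, 6.08% were called, 3.15% higher and 2.94% lower in the mutant. Of the 12 hormone probe sets 1 was called, and it was higher. By gene, each read from its brightest probe set, 1 of 9 was called, against 7.7% of all 18193. Counts this small do not set the hormone genes apart from the array as a whole. Insm1 itself did not pass the test on either of its 2 probe sets. The brighter read 10.71, 11.08 and 11.30 (lowest, median and highest) in mutants, against 10.94, 11.24 and 11.60 in controls, a difference of −0.25 ± 0.11 (SE, limma adjusted p = 0.211). Whether these probes lie inside the deletion is not given in the sources used here, and they do not check the genotype labels.

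Signals of other cells in the preparations varied widely between arrays. The mean signal of 17 measured acinar markers, genes of the enzyme-secreting cells around islets, ran from 8.52 to 14.05 with a median of 11.90 in mutants, and from 12.00 to 14.39 with a median of 13.14 in controls. In 8 of 8 same-numbered pairs the mutant had the lower acinar mean, while 0 of the 17 markers were called in either direction. The mean of 15 immune-cell markers ran from 7.98 to 9.95 in mutants and from 7.80 to 9.0 in controls, with mutant replicates 1 and 3 the highest at 9.95 and 9.68, and 1 marker was called higher. The 3′ minus 5′ signal of Gapdh, a measure of RNA integrity, was lower in mutants in 8 of 8 pairs, and that of beta-actin in 7 of 8. None of the acinar markers had a mean below the lowest array median of 6.29. In these bulk samples, fewer cells of a type and less RNA per cell cannot be told apart.

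Ghrl was read by 1 probe set, 1448980_at. Ghrelin is a peptide known for stimulating appetite and for restraining insulin release. Its log2 signal was 6.18 at the lowest, 6.80 at the median and 8.19 at the highest in mutant islets, against 5.77, 5.96 and 6.51 in control islets. The groups overlapped, but 6 of 8 mutant arrays lay above every control array. The highest signals were those of mutant replicates 4 and 2, at 8.19 and 7.83.

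The Ghrl signal averaged 6.99 ± 0.71 in mutants and 6.03 ± 0.27 in controls (SD, n = 8 each). The difference was 0.96 ± 0.24 (SE, 95% interval 0.45 to 1.47, limma adjusted p = 0.0234). It was higher in the mutant in 8 of 8 same-numbered pairs, by 0.10 to 1.96 with a median of 0.96. Over the whole array, 4.87% of probe sets were higher in all 8 pairs. Among the 1417 probe sets called higher, the difference of Ghrl was the 148th by size.

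In controls, 7 of 8 Ghrl signals lay below 6.29, the lowest array median, against 1 of 8 in mutants. No detection calls were given, and background can compress the fold. Adding the acinar marker mean to the limma model gave a difference of 0.98 (adjusted p = 0.0469). Adding the immune-cell mean gave 0.96 (adjusted p = 0.0432). With the replicate block alone the difference was 0.96 (adjusted p = 0.0112). Across the 16 arrays, deviations of Ghrl from its group means had almost no relation to those of the acinar mean (Pearson r = 0.04, Spearman rho = 0.12). The call held when any 1 array was left out (adjusted p from 0.0102 to 0.0468). It was lost without pairs 1 to 3, where the difference was 0.92 (adjusted p = 0.176) and 0 of the 12 hormone probe sets were called. Nor did Ghrl pass when the acinar mean and the replicate block were both in the model (1.22, adjusted p = 0.147), where 0 hormone probe sets were called, or when the immune-cell mean and the block were (0.86, adjusted p = 0.0742).

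**Figure D1:**
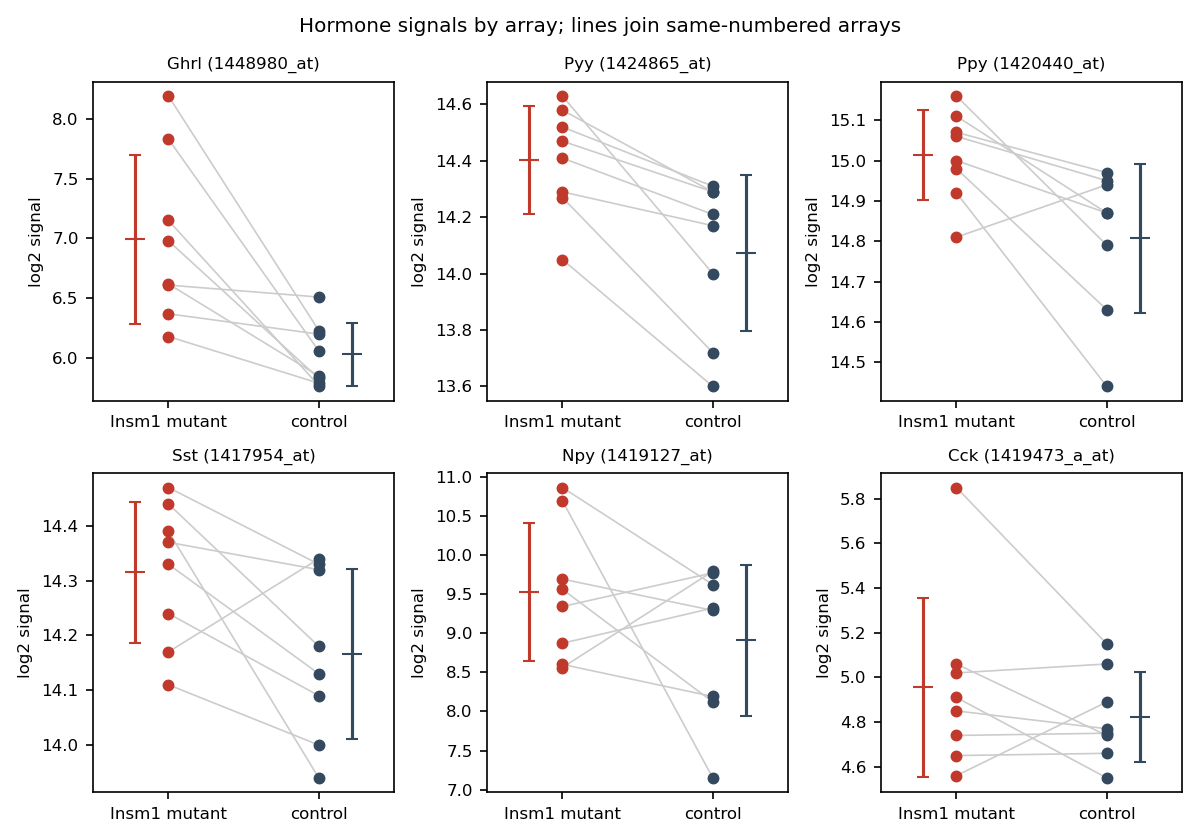
Log2 signals of 6 hormone genes on each array (vertical axes, a separate scale per gene), Insm1 mutant left and control right, with grey lines joining same-numbered arrays and bars giving the mean ± SD (n = 8 each). Every line falls towards the control for Ghrl and Pyy, while those of Npy and Cck run in both directions.

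Pyy encodes peptide YY, a gut and islet peptide known for slowing gut movement and reducing food intake. Its log2 signal was 14.05, 14.44 and 14.63 in mutant islets (lowest, median and highest), against 13.60, 14.19 and 14.31 in control islets. Of the mutant arrays 5 lay above every control, and 3 control arrays lay below every mutant. The lowest controls were replicates 1 and 2, at 13.60 and 13.72.

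The mean of Pyy was 14.40 ± 0.19 in mutants and 14.07 ± 0.28 in controls (SD, n = 8 each), a difference of 0.33 ± 0.11 (SE, 95% interval 0.10 to 0.56). It did not pass the test (limma adjusted p = 0.0903), but passed with the replicate number as a block (adjusted p = 0.00409). Pyy was higher in the mutant in 8 of 8 pairs, by 0.11 to 0.64. With the block, 12.0% of all probe sets tested were called, including 5.9% called higher in the mutant. Of the 12 hormone probe sets 3 were called with it, all higher. The difference of Pyy was 0.16 once the acinar mean was in the model (adjusted p = 0.384), whereas the immune-cell mean left it at 0.41 (adjusted p = 0.0331). With the block and the acinar mean together it was 0.36 (adjusted p = 0.146). Deviations of Pyy and of the acinar mean ran in opposite directions over the 16 arrays (r = −0.63, rho = −0.63).

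Ppy encodes pancreatic polypeptide, the hormone of PP cells, known for inhibiting pancreatic secretion. Its log2 signal was 14.81, 15.03 and 15.16 in mutant islets (lowest, median and highest), against 14.44, 14.87 and 14.97 in control islets. Of the mutant arrays 6 lay above every control, and mutant replicate 8 was the lowest. The means were 15.02 ± 0.11 in mutants and 14.81 ± 0.18 in controls (SD, n = 8 each), and Ppy was higher in the mutant in 7 of 8 pairs.

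The difference of Ppy was 0.21 ± 0.07 (SE, 95% interval 0.06 to 0.36, limma adjusted p = 0.106), and its adjusted p was 0.0403 with the replicate block. Adding the acinar mean gave 0.14 (adjusted p = 0.308), and the acinar mean with the block 0.30 (adjusted p = 0.192). On average Ppy lay 0.48 under the top of the scale, so its difference may be compressed, whereas Pyy lay 1.15 below it.

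Ppy and Pyy varied together from array to array. Deviations from the group means correlated with r = 0.90 and rho = 0.86 over the 16 arrays, and with r = 0.92 without the 2 arrays farthest from the median of Ppy. Within the groups r was 0.79 in the 8 mutants and 0.95 in the 8 controls (rho = 0.86 and 0.71). The 8 pair differences correlated with r = 0.82 and rho = 0.86. Of all other genes measured, Pyy was the one most like Ppy (rank 1), and Ppy ranked 4 among those most like Pyy. This pair was picked from 60 pairs of probe sets of different hormones (median r = 0.29, −0.35 to 0.90), and same-numbered arrays are not independent, so no p is given. The acinar mean moved against both genes (r = −0.39 and rho = −0.47 for Ppy, −0.63 and −0.63 for Pyy). Its part in their likeness was not tested.

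Npy encodes neuropeptide Y, a transmitter of sympathetic nerves that immature beta cells are also known to make. Its log2 signal was 8.56, 9.45 and 10.86 in mutant islets (lowest, median and highest), against 7.15, 9.30 and 9.79 in control islets. Only mutant replicates 5 and 8, at 10.86 and 10.69, lay above all controls, and control replicate 8 was the lowest. Npy had the largest spread of the 12 probe sets, with means of 9.52 ± 0.88 in mutants and 8.91 ± 0.97 in controls (SD, n = 8 each).

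The difference of Npy was 0.62 ± 0.42 (SE, 95% interval −0.26 to 1.49, limma adjusted p = 0.476), and it was higher in the mutant in 5 of 8 pairs, with pair differences from −1.23 to 3.54. The interval allows a rise of 2.82-fold as well as a small fall. Without control replicate 8 the difference was 0.37 (adjusted p = 0.695), and without pairs 1 to 3 it was 1.24 (adjusted p = 0.254). The Npy signal lay 6.18 below the top of the scale, so compression there does not bear on it. Its deviations ran against those of the immune-cell mean (r = −0.57, rho = −0.58). Adding that mean to the model gave 1.01 (adjusted p = 0.148), and adding the acinar mean and the block gave −0.13 (adjusted p = 0.961), so its direction was not settled.

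Sst encodes somatostatin, which restrains release of the other islet hormones. Its log2 signal was 14.11, 14.35 and 14.47 in mutant islets (lowest, median and highest), against 13.94, 14.16 and 14.34 in control islets. Of the 8 mutant arrays 4 lay above every control. The means were 14.31 ± 0.13 and 14.17 ± 0.16 (SD, n = 8 mutants and n = 8 controls), a difference of 0.15 ± 0.07 (SE, limma adjusted p = 0.266), with a 95% interval of 0.00 to 0.29. With the acinar mean in the model it was 0.05 (adjusted p = 0.721), and with the block as well 0.15 (adjusted p = 0.564).

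Gcg encodes the precursor of glucagon and, in the gut, of GLP-1. Log2 signals of Gcg were 14.93, 15.07 and 15.17 in mutant islets (lowest, median and highest), against 14.76, 15.03 and 15.08 in control islets. The difference was 0.07 ± 0.05 (SE, 95% interval −0.03 to 0.18, limma adjusted p = 0.465). It was 0.040 without control replicate 2 (adjusted p = 0.677) and 0.007 with the RNA-quality covariate (adjusted p = 0.97). Gcg lay 0.36 below the top of the scale, and it was higher in the mutant in 6 of 8 pairs.

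Ins2, 1 of the 2 mouse insulin genes, was read by 1422446_x_at, whose suffix marks probes that may also detect related transcripts. Log2 signals of Ins2 were 15.354, 15.363 and 15.393 in mutant islets (lowest, median and highest), against 15.339, 15.363 and 15.363 in control islets. It was the brightest of all probe sets on 16 of 16 arrays, and 10 arrays, 5 of each group, held the very same value, 15.36. The difference was 0.011 ± 0.023 (SE, 95% interval −0.038 to 0.059, limma adjusted p = 0.858). Since Ins2 was the brightest on every array, the highest value of the data, 15.393, was its own. Its average distance of 0.031 from that value therefore reflects its own spread and does not itself show a ceiling. With quantile normalisation the difference was 0.000, as it must be for a probe set brightest on every array. So near the top, a rise or a moderate fall of the transcript may go unseen. How this probe set responds there was not tested. Its small deviations from the group means ran against those of the acinar mean (r = −0.65, rho = −0.54). With 10 arrays at the very same value, this correlation rests on the few others.

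Iapp, which encodes the amyloid polypeptide released with insulin, was read by 4 probe sets at different distances from the top. The brightest, 1423510_at, averaged 15.16 ± 0.03 in mutants and 15.15 ± 0.06 in controls (SD, n = 8 each), 0.24 below the top. The next, 1437323_a_at and 1423509_a_at, lay 0.71 and 0.86 below the top. The dimmest, 1456004_x_at, lay 3.13 below it. Log2 signals of this probe set were 12.14, 12.29 and 12.38 in mutant islets (lowest, median and highest), against 12.12, 12.26 and 12.30 in control islets.

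The 4 Iapp differences ran from 0.01 to 0.06, and none passed the test (limma adjusted p from 0.572 to 0.904). For 1456004_x_at, farthest from the ceiling, the difference was 0.04 ± 0.04 (SE), and the 95% interval of −0.05 to 0.13 allows at most a 1.10-fold rise or a fall to 0.969 of the control signal. That probe set also carries the suffix of possible cross-detection. Deviations of the 4 probe sets from their group means followed each other over the 16 arrays, with r from 0.75 to 0.93 and rho from 0.72 to 0.91, although 3 of them lay within 1 log2 unit of the ceiling. The deviations of 1423509_a_at ran against the acinar mean (r = −0.68, rho = −0.60).

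Cck encodes cholecystokinin, a gut hormone that makes the gallbladder contract, and islets of obese mice are known to make it. Log2 signals of Cck were 4.56, 4.88 and 5.85 in mutant islets (lowest, median and highest), against 4.55, 4.76 and 5.15 in control islets. All 16 values lay below 6.29, the lowest array median. The difference was 0.13 ± 0.15 (SE, 95% interval −0.17 to 0.44, limma adjusted p = 0.695), and the highest value was that of mutant replicate 8. Without that array the difference was 0.006 (adjusted p = 0.985), so the value rested on it. Whether Cck was expressed at all was not detectable from these signals.

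**Figure D2:**
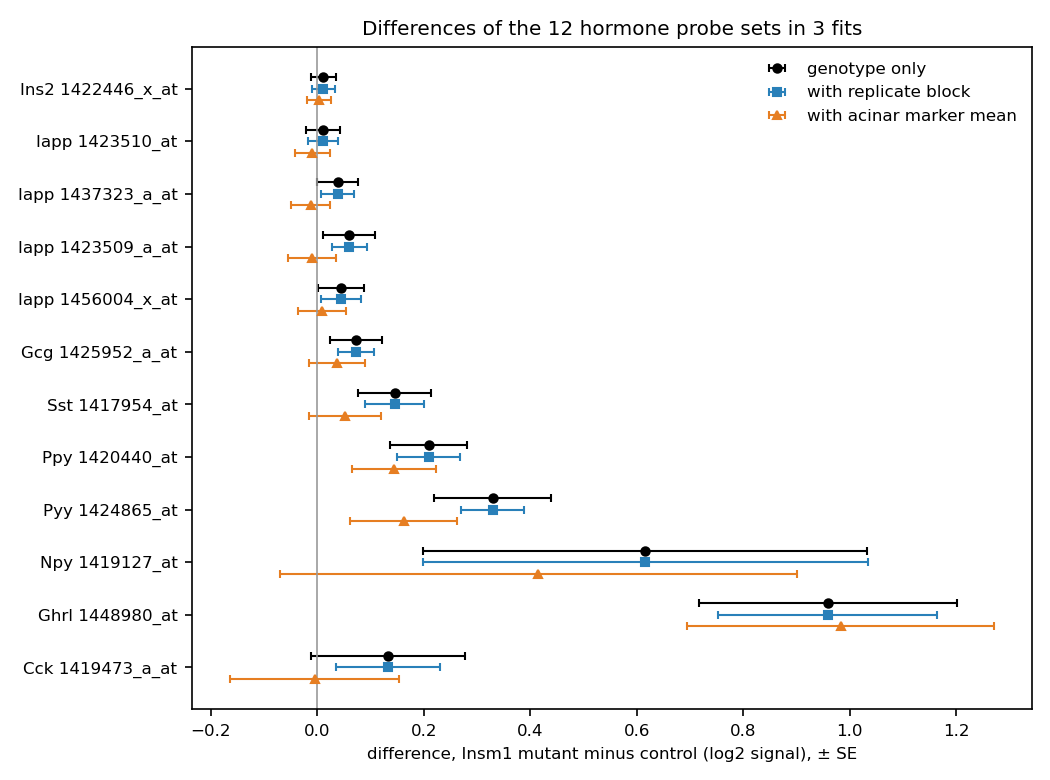
Differences of the 12 hormone probe sets, Insm1 mutant minus control (horizontal axis, log2 signal, bars ± SE, n = 8 per group), in fits with genotype only, with the replicate block and with the acinar marker mean. Ghrl stays near 0.96 in all 3 fits, while Pyy is at 0.33, 0.33 and 0.16.

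The mean of all 12 hormone probe sets was higher in mutants than in controls. Over the whole array 49.4% of probe sets had a higher mean in the mutant, but of the 143 within 2 log2 units of the top 73.4% did, and 8 of those 143 were hormone probe sets. Bright probe sets were thus mostly higher whether or not they were hormones. The sign was not the same in all fits for Ins2, Iapp, Npy and Cck. With median centring the differences of Ins2 and of 1423510_at were below 0, with the acinar mean those of Cck and of 3 of the 4 Iapp probe sets, and with the block and the acinar mean that of Npy.

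The hormone probe sets lay at different distances from the top of the scale. The highest value, 15.39, was a signal of Ins2. Of the 12 hormone probe sets, 6 lay within 1 log2 unit of it, and 5 were among the 10 brightest of the array. Over all probe sets, 16 lay that near the top, of which 6.25% were called, with a median size of difference of 0.0726 and none above 0.209, which was that of Ppy. Between 1 and 2 units from the top, where Sst and Pyy lay, 39.4% of 127 probe sets were called. Between 2 and 4 units, where 1456004_x_at of Iapp lay, 18.0% of 1029 were called. Between 6 and 9 units, where Npy and Ghrl lay, 8.67% of 16715 were called. Beyond 9 units, where Cck lay, 2.47% of 23055 were called.

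**Figure D3:**
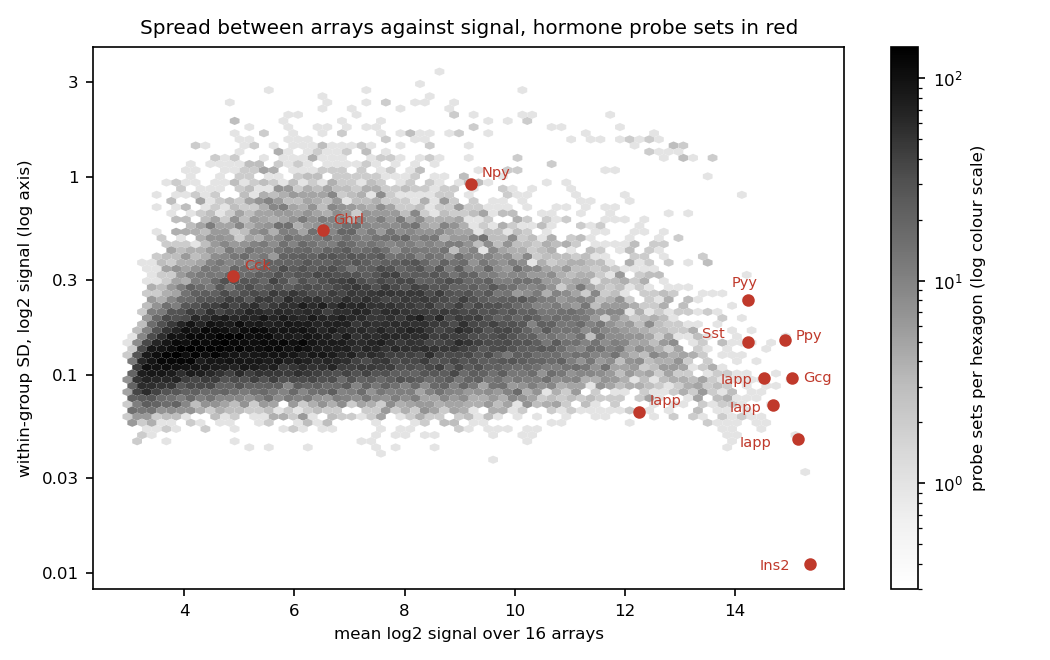
Within-group SD of the log2 signal (vertical axis, log scale) against the mean log2 signal over 16 arrays (horizontal axis) for all 45037 probe sets, shaded by their number, with the hormone probe sets in red. Ins2 sits at the right edge with the smallest spread of the 12, and Npy has the largest.

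Arrays with high acinar signal tended to have low Pyy, Ppy and Sst. Control replicates 1 and 2, with acinar means of 14.31 and 14.39, had the lowest Sst signals of all arrays, 14.00 and 13.94, besides the lowest Pyy and Ppy. Over the 16 arrays the deviations of Sst ran against those of the acinar mean (r = −0.59, rho = −0.57). The relation of acinar RNA to the differences between the groups was not tested beyond the covariate fits given above.

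**Figure D4:**
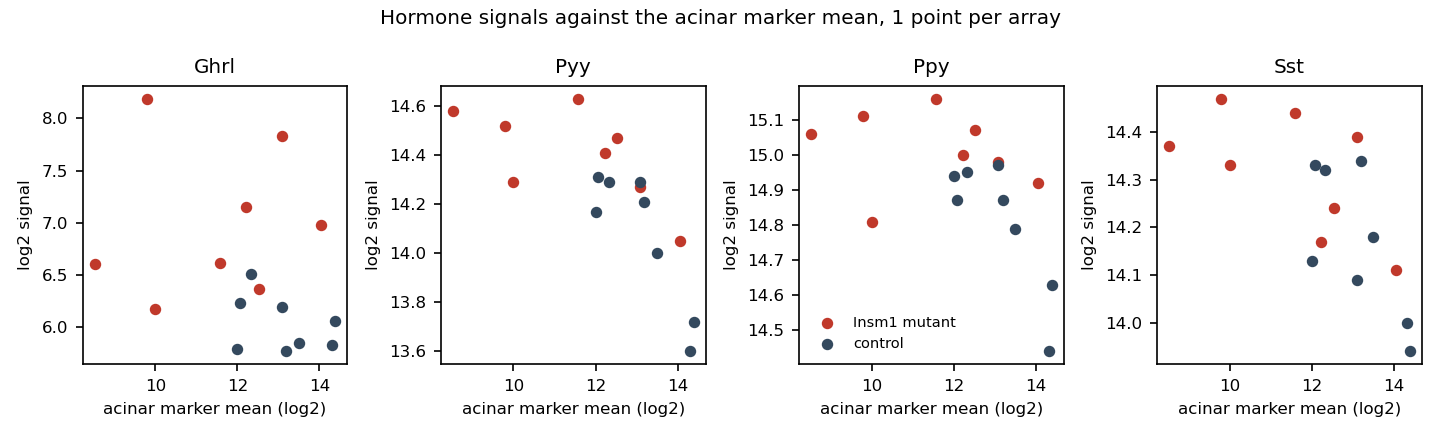
Log2 signal of Ghrl, Pyy, Ppy and Sst (vertical axes) against the mean log2 signal of the acinar markers (horizontal axis), 1 point per array, Insm1 mutant in red and control in dark blue. The lowest Pyy, Ppy and Sst values are those of controls with acinar means of 14.31 and 14.39, and Ghrl shows no such trend.

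Genes that act on or with these hormones were read from lists, each gene by its brightest probe set. Of all 18193 genes, 7.7% were called this way, 3.63% higher and 4.06% lower, and the median difference was −0.01. Of 20 measured receptor genes for the hormones, counting the partners Ramp1, Ramp2 and Ramp3, 2 rose and 1 fell, with a median difference of −0.01. Ramp1, whose product turns the calcitonin receptor into an amylin receptor, rose 2.61-fold. In mutant islets the log2 signal was 9.45, 9.84 and 10.34 (lowest, median and highest), against 8.15, 8.43 and 8.85 in control islets, with no overlap (limma adjusted p = 2.64e-06). Of its 3 probe sets 2 were called, both higher. Calcr, the calcitonin receptor gene itself, averaged 3.43, below the lowest array median of 6.29, and was not called (difference 0.10, limma adjusted p = 0.258).

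Sstr2, a somatostatin receptor gene, rose 1.46-fold (limma adjusted p = 0.0106, higher in 7 of 8 pairs), with overlapping groups. Glp1r, the receptor of GLP-1, fell to 6.84 ± 0.29 in mutants, against 7.92 ± 0.33 in controls (SD, n = 8 each, limma adjusted p = 0.000169). The receptors of ghrelin, pancreatic polypeptide, peptide YY and neuropeptide Y on the list did not pass the test. Their mean signals, from 3.19 (Npy2r) to 4.83 (Npy5r), all lay below 6.29, the lowest array median, as did 10 of the 20 listed genes. Whether these receptors were expressed or changed cannot be read from such signals.

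Of 8 measured genes of hormone maturation, 0 rose and 1 fell, with a median difference of 0.02. Ero1b, which supports folding of proinsulin in the endoplasmic reticulum, fell to 13.62 ± 0.19 in mutants, against 14.02 ± 0.09 in controls (SD, n = 8 each). The difference was −0.39 ± 0.07 (SE, limma adjusted p = 0.00239), without overlap between the groups.

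Of 17 measured transcription factor genes known to act on islet hormone genes, 0 rose and 2 fell, with a median difference of −0.07. Pdx1, an activator of the insulin genes, was 1.47-fold lower in mutants (limma adjusted p = 4.62e-05), and all mutants lay below all controls, at up to 10.58 in mutants against at least 10.76 in controls. Nkx6-1, a beta-cell identity factor, was 1.31-fold lower (limma adjusted p = 0.00391, lower in 8 of 8 pairs).

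Of 32 measured genes of other peptide hormone precursors, 1 rose and 2 fell, with a median difference of −0.01. Penk, the enkephalin precursor, rose 2.65-fold. In mutant islets it read 7.11, 7.76 and 8.47 (lowest, median and highest), against 5.88, 6.24 and 6.84 in control islets, with no overlap (limma adjusted p = 0.000266). Ucn3, the beta-cell peptide that stimulates somatostatin release, fell to 10.92 ± 0.35 in mutants, against 12.28 ± 0.31 in controls (SD, n = 8 each, limma adjusted p = 2.43e-05). Vgf, the precursor of several neuroendocrine peptides, was 1.45-fold lower (limma adjusted p = 0.0478).

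Markers of the endocrine cells other than hormones were counted in the same way, and Glp1r, Ero1b, Pdx1, Nkx6-1 and Ucn3 above are also on the beta-cell list. Of 9 measured beta-cell markers, 9 fell, with a median difference of −0.56. Of 6 measured alpha-cell markers 4 rose, with a median of 0.65, and of 6 delta-cell markers 3 rose, with a median of 0.28. Of 5 duct markers 1 fell, of 9 stromal markers 2 rose and 1 fell, and of 8 endothelial and 6 Schwann-cell markers 0 were called. Their part in the differences of the hormones was not tested.

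For the hormone genes over 1 log2 unit below the top, the 3 genes most like each were sought by correlation of deviations from the group means over the 16 arrays. Being the highest of all genes, these correlations are descriptions with no p. For Ghrl they were Gm7694, C2 and 2010320O07Rik, with r from 0.73 to 0.79 and rho from 0.53 to 0.67, and r fell to between 0.39 and 0.61 without the 2 arrays farthest from the median of Ghrl. For Pyy they were Srrd, BC029722 and Pqbp1 (r from 0.91 to 0.94, rho from 0.80 to 0.89, and r from 0.81 to 0.88 without the 2 arrays farthest from its median). For Sst they were Iscu, Rars2 and Slain2 (r from 0.86 to 0.88, rho from 0.79 to 0.89, and r from 0.81 to 0.84 without the 2 farthest). For Npy they were Unc119b, Foxa3 and Epb41l4a (r from 0.79 to 0.81, rho from 0.77 to 0.86, and r from 0.70 to 0.82 without the 2 farthest). For Cck they were Gm34303, Gmds and 5330439B14Rik (r from 0.85 to 0.89, rho from 0.63 to 0.77), and r fell to between 0.55 and 0.73 without the 2 farthest.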

How the data were processed

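Per the labels' protocols, total RNA of islets was extracted with Trizol and labelled as biotinylated cRNA with the 3′ IVT Express kit. The authors deposited 1 log2 signal per probe set and array. Background correction, summarisation and normalisation are not given in the sources used here, and the log base was taken from the range of the values. Array medians lay between 6.29 and 6.35, correlations between arrays between 0.971 and 0.993, and no further scaling was applied. The table held 45101 probe sets, of which 64 Affymetrix controls were dropped. By the annotation 34945 probe sets had 1 gene symbol, 932 had several and 9160 had none, and symbols were updated by gene identifier to RefSeq for 34754.

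Tests were run in R 4.3.3 with limma 3.58.1 (lmFit, eBayes with a mean-variance trend, genotype as the only term), two-sided, with Benjamini-Hochberg adjustment over all probe sets. The main fit was tried on simulated arrays drawn independently, without pairs, shared acinar variation or a limit at the top. That trial does not bear on those points. The number of arrays limits the precision. The hormone genes and lists were chosen with earlier results of these data known. Named are all hormone genes, up to 4 called genes with the lowest p of each list of related genes, and the 3 genes most like each hormone gene below the ceiling. The pair Ppy and Pyy was singled out after its values were seen.

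Replicate numbers are shared by the groups. Deviations of same-numbered arrays correlated by 0.18 to 0.672 in the 8 pairs, with a median of 0.384, while arrays of different numbers had a median of −0.0701. Of the 16 arrays, 11 were most like the array of their own number in the other group. The numbers were therefore taken as pairs in the pair counts and block fits, but not in the main test. The design text says litter-matched but does not tie the numbers to litters. Tried as alternatives were median centring, quantile normalisation, a filter on dim probe sets, no trend, array weights, the replicate block, acinar, immune-cell and RNA-quality covariates, leaving out arrays, and gene-level tests.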

Additional observations from a re-analysis of the deposited data

Results flagged for a closer look

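In each group of 8 arrays, the gap between an extreme value and its neighbour was set against the whole range of the group, with a 95% critical value of 0.526. Over 24 groups of hormone signals 2 passed it, and chance gives about 1 in 20. The Cck signal of mutant replicate 8, 5.85, was far above the other mutants, with a gap of 0.61 of the range. The Gcg signal of control replicate 2, 14.76, was far below the other controls, with a gap of 0.55 of the range. Neither gene was called with or without that array, and without it the difference was 0.006 for Cck and 0.040 for Gcg.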

How the results depend on the processing

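Of 353 values of the hormone differences under other settings, 345 stayed on the same side of the threshold, 3 lost a call and 5 gained one. The 3 lost calls were all of Ghrl, the only hormone gene called in the main fit, among its 30 alternatives. Most other hormone probe sets lay far from the threshold, so the pooled count says little about Ghrl. No called difference changed its sign. With the replicate block 3 hormone probe sets were called, those of Ghrl, Ppy (0.209) and Pyy (0.329), and 5420 over the array. With the immune-cell mean 2 were called, with Pyy at 0.409. With the block and the immune-cell mean Pyy was called (0.324) and Ghrl was not (0.862). With the block and the acinar mean 0 were called, with Ghrl at 1.222, Pyy at 0.358, Ppy at 0.302 and 971 calls over the array, and without pairs 1 to 3 also 0, with Ghrl at 0.918 and 1318 calls over the array. With the RNA-quality covariate 1704 were called over the array, against 2740 in the main comparison. When each array was left out in turn, 1 to 2 hormone probe sets were called, the second being Pyy without mutant replicate 1 (0.379), and the difference of Pyy ran from 0.261 to 0.379. Fits with fewer arrays or more terms have fewer degrees of freedom. The SE of Ghrl was 0.242 in the main fit and 0.206 with the block. It was 0.383 with the block and the acinar mean, 0.257 with the block and the immune-cell mean, and 0.317 without pairs 1 to 3. Acinar signal was also tied to genotype, since each mutant array had less of it than its same-numbered control. The cause of the lost calls was not tested. Cck was left out where dim probe sets were. The block changed no other call of a hormone. The ceiling may limit Ins2, Gcg, Ppy and 3 of the 4 Iapp probe sets, and background may limit Ghrl and Cck.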
